A study of Mus musculus with 2 samples.

Results

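Stromal and endothelial cells of the spleen are followed here through 10 genes: the fibrillar collagen chains Col1a1, Col1a2 and Col3a1, the matrix-binding proteins Sparc and Bgn, the pericyte receptor Pdgfrb, the endothelial proteins Pecam1, Cdh5 and Kdr, and the addressin Madcam1. They were chosen by symbol and by what they are known for, with earlier results of these data known, to judge how much RNA of spleen stroma the Treg cell libraries held. All 10 were found among the 20938 genes of the data. RNA-seq compared Treg cells of Foxp3-Mettl14f/+ cKO mice with those of littermate controls, at 1 library each. Both were prepared from the spleen on day 7 after BALB/c islets were placed in recipients made diabetic with streptozotocin, and neither group received the tolerance-inducing antibodies. The recipients were on a C57BL/6J background. The cKO mice carried 1 floxed Mettl14 allele and a Cre recombinase driven by the Foxp3 promoter, which is at work in Treg cells, and the methods give the littermates as Mettl14f/f. The labels call the control library wild type and the other library KD, with a knockdown of Foxp3 as its genotype, whereas the methods give Foxp3-Mettl14f/+ cKO, the name used here. The age of the mice and the number of mice behind each library are not given in the sources used here.

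The spleen is held together by a framework of fibroblasts, called reticular cells, which make collagen fibres and the chemokines that position lymphocytes, and by sinus and vessel endothelium with its pericytes and smooth muscle. Col1a1 and Col1a2 encode the chains of type I collagen and Col3a1 the chain of type III collagen, and fibroblasts make these in large amounts. Pecam1, also called CD31, is a junction protein of endothelial cells that platelets, neutrophils, monocytes and some T cells carry as well, whereas Cdh5 (VE-cadherin) and Kdr (VEGF receptor 2) are held more closely to endothelium. In the study the cells were released by passing spleens through a nylon mesh, the red cells were lysed, and CD4+CD25+ cells were taken with magnetic beads after depletion of cells other than CD4+ T cells. Stromal cells carry neither CD4 nor CD25 as a rule.

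The control library held 20239325 reads and the cKO library 18327535. Each deposited value was a whole number times a constant of its library. These whole numbers were recovered and are called reads here, the control library first wherever a pair of values has no name. The counting tool is not given, so whether they are reads as counted or estimates of them is not known. Each genotype has 1 library and so no replicate spread, and none of the differences below is checked by a replicate. Intervals are at 95%, were computed on reads by the exact Clopper-Pearson method and cover counting error only, since reads counted without molecular identifiers may share a molecule. The 12 Treg genes, among them Foxp3, summed to 428 and 430 reads per 1000000 library reads (RPM), so both libraries held RNA of the labelled cell type. Genes of other cells were found too. The 12 granulocyte genes summed to 12308 and 15588 RPM, the 10 B cell genes to 382 and 2002, the 13 macrophage genes to 212 and 724, and the 12 erythroid genes to 2149 and 869. Mettl14, the gene that the methods give as targeted, had 948 and 652 reads, and its log2 fold change was -0.31 (95% interval -0.45 to -0.16). Foxp3, the gene that the label gives as knocked down, had 1547 and 1361 reads, and its log2 fold change was 0.05 (-0.06 to 0.15), so the reads did not show a fall of Foxp3.

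The chains of type I and type III collagen were at or near 0 in both libraries. Col1a1 had 8 control and 9 cKO reads. Col1a2, whose protein joins that of Col1a1 in type I collagen, had 0 control and 12 cKO reads. Col3a1 had 0 reads in both, which allows up to 0.148 RPM (control) and 0.164 RPM (cKO) when 3 reads are taken as the limit that a count of 0 allows. The 3 chains together came to 0.395 RPM among control reads (95% interval 0.171 to 0.779) and to 1.15 RPM among cKO reads (0.709 to 1.75). The log2 fold change of Col1a1 was 0.36 with an interval of -1.14 to 1.98, which holds 0, while Col1a2 was higher in the cKO library by at least 4.70-fold, taken against 3 control reads. Here and below, such a fold sets the reads as counted against the limit of 3 reads in the library at 0, without the counting error of the reads themselves. With that error included, the 95% interval of Col1a2 began at a log2 fold change of 1.71, a lower limit under the 4.70-fold. Of all genes with 13 to 25 control reads, 41.8% had 0 cKO reads, and in the reverse direction the share was 14.2%. The limit of 3 reads and the folds written as at least take no account of this and are not firm bounds. Gm43921 and Gm47302, not analysed here, overlap Col1a2 and Col3a1 on the same strand, so these counts are uncertain if shared reads were left out.

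The matrix-binding proteins were read in the control library only. Sparc, a secreted protein that binds collagen and is also made by megakaryocytes, had 10 control and 0 cKO reads, a level at least 2.84-fold lower against 3 reads, and its 95% interval ended at a log2 fold change of -0.93. Bgn, the proteoglycan biglycan, had 6 control and 0 cKO reads, at least 1.70-fold lower against 3 reads, but its 95% interval reached 0 and it had too few reads to be tested. Together they had 16 control reads and 0 cKO reads, so that the cKO library had reads on type I collagen and none on these collagen-binding proteins.

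**Figure D1:**
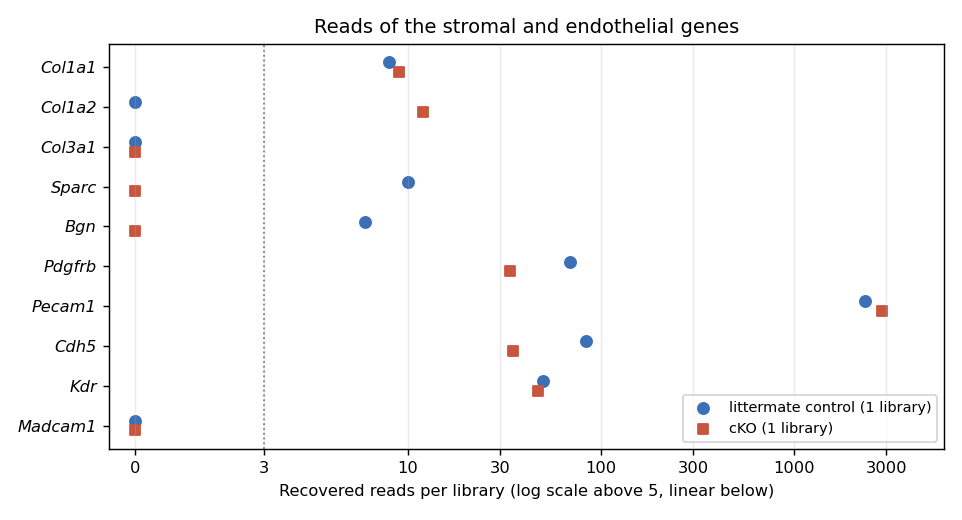
Reads of each of the 10 genes in the littermate control library (circles) and the cKO library (squares), 1 library each, on an axis that is linear below 5 reads and logarithmic above, with a dotted line at 3 reads. Col3a1 and Madcam1 sit at 0 in both libraries, Col1a2, Sparc and Bgn at 0 in 1 of them, and Pecam1 stands apart at 2339 and 2836 reads.

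Counts of this size were often met by a 0 in the other library, whatever the gene. Of the 1385 genes with 6 to 12 control reads, 844 (60.9%) had 0 cKO reads. Of the 892 genes with 6 to 12 cKO reads, 256 (28.7%) had 0 control reads. Sparc and Bgn belong to the former group and Col1a2 to the latter. Among genes with 51 to 100 control reads the share with 0 cKO reads was 1.61%, and in the reverse direction it was 0.799%.

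**Figure D2:**
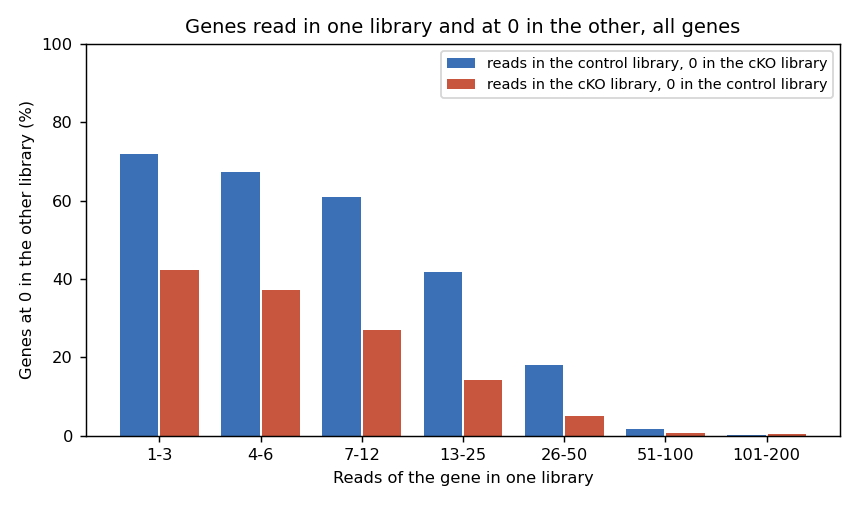
Percent of all genes with a given number of reads in 1 library that had 0 reads in the other, for genes read in the control library (left bar of each pair) and in the cKO library (right bar), with the number of reads on the horizontal axis. The share falls from 72.0% and 42.3% at 1 to 3 reads to 0.179% and 0.338% at 101 to 200 reads, and the control bar is the taller in every class up to 51 to 100 reads.

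Pdgfrb was lower in the cKO library. This receptor for PDGF-B marks pericytes and fibroblasts, and it had 69 control and 34 cKO reads. Its log2 fold change was -0.77 (95% interval -1.43 to -0.18), and in the two-sided exact binomial test on reads its adjusted p was 0.0123 (Benjamini-Hochberg). That test compares these libraries and not the genotypes. With a coefficient of variation between replicates assumed at 0.2 or 0.4, as edgeR's exact test allows, the adjusted p was 0.466 or 1. When the 16 T cell core genes, such as Cd3e and Lck, were set equal between the libraries, the log2 fold change of Pdgfrb was -0.54, under the fold of 1.5 that counts as a difference here.

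The 3 endothelial genes gave 3 different pictures. Cdh5, which holds endothelial cells together at their junctions, had 84 control and 35 cKO reads and so a log2 fold change of -1.01 (95% interval -1.64 to -0.44). Its adjusted p was 0.000451 in the exact binomial test and 0.214 or 1 with edgeR's exact test at the assumed coefficients of 0.2 or 0.4. Kdr, the main receptor for VEGF-A on blood endothelium, had 50 and 47 reads, a log2 fold change of 0.14 (-0.46 to 0.75) and an adjusted p of 0.738 in the exact binomial test. Pecam1 had 2339 control and 2836 cKO reads. Its log2 fold change was 0.51 (0.43 to 0.59), a fold of 1.43, so the gene was under the fold of 1.5 although its reads differed by more than counting error (adjusted p of 8.02e-33 in the exact binomial test, and 0.641 or 1 with edgeR's exact test). With those T cell core genes taken as equal, the change of Pecam1 was 0.75 and past that fold, and with library totals it was 0.42. Cdh5 and Pecam1 therefore went in opposite directions, and the interval of Kdr held 0. Gm29682, not analysed here, overlaps Cdh5 on the opposite strand. The strand setting of the libraries is not stated, so reads of this pair cannot be told apart.

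Madcam1, the vessel protein to which lymphocytes with the integrin of Itga4 and Itgb7 bind, is known in the mouse spleen from the cells that line the marginal sinus. It had 0 reads in both libraries. Its partners on lymphocytes were read in depth, with 19362 and 19975 reads on Itga4 and 5707 and 4912 reads on Itgb7. The nearest gene, Tpgs1, lies 831 bases away on the same strand and had 229 and 243 reads. Whether reads of Madcam1 itself could have been counted was not tested.

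Levels can be compared between genes only per length of transcript, for which reads per kilobase of exon and per 1000000 library reads (RPKM) were computed from the recovered reads. Pecam1 stood at 18.6 RPKM in the control library (95% interval 17.8 to 19.3) and 24.8 in the cKO library (23.9 to 25.8). It was followed in the control library by Cdh5 at 0.987 (0.788 to 1.22), Pdgfrb at 0.622 (0.484 to 0.788), Kdr at 0.274 (0.203 to 0.361), Sparc at 0.130, Col1a1 at 0.0602 and Bgn at 0.0486. The intervals of Cdh5 and Pdgfrb met at their ends, that of Kdr overlapped that of Sparc (0.0625 to 0.240), and those of Sparc, Col1a1 (0.0260 to 0.119) and Bgn (0.0178 to 0.106) overlapped. In the cKO library the order was Pecam1, Cdh5 at 0.454 (0.316 to 0.632), Pdgfrb at 0.339 (0.235 to 0.473), Kdr at 0.284 (0.209 to 0.378), Col1a1 at 0.0748 and Col1a2 at 0.0527. There, Cdh5, Pdgfrb and Kdr each overlapped the next, and so did both collagen chains.

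Set against T cell genes, all of the 10 but Pecam1 were low. The median of the 16 T cell core genes was 54.8 RPKM (control) and 38.4 RPKM (cKO), and the median of all genes with a known length was 1.63 and 1.57. Pecam1 reached 33.8% and 64.7% of the T cell core median. Cdh5 reached 1.80% and 1.18%, Pdgfrb 1.13% and 0.883%, and Kdr 0.499% and 0.740%. Col1a1 was at 0.110% and 0.195% of that median. Pecam1 was 18.8 times the RPKM of Cdh5 (control) and 54.7 times (cKO), and 67.8 and 87.5 times that of Kdr. In both libraries the 9 other genes were below the median of all genes.

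**Figure D3:**
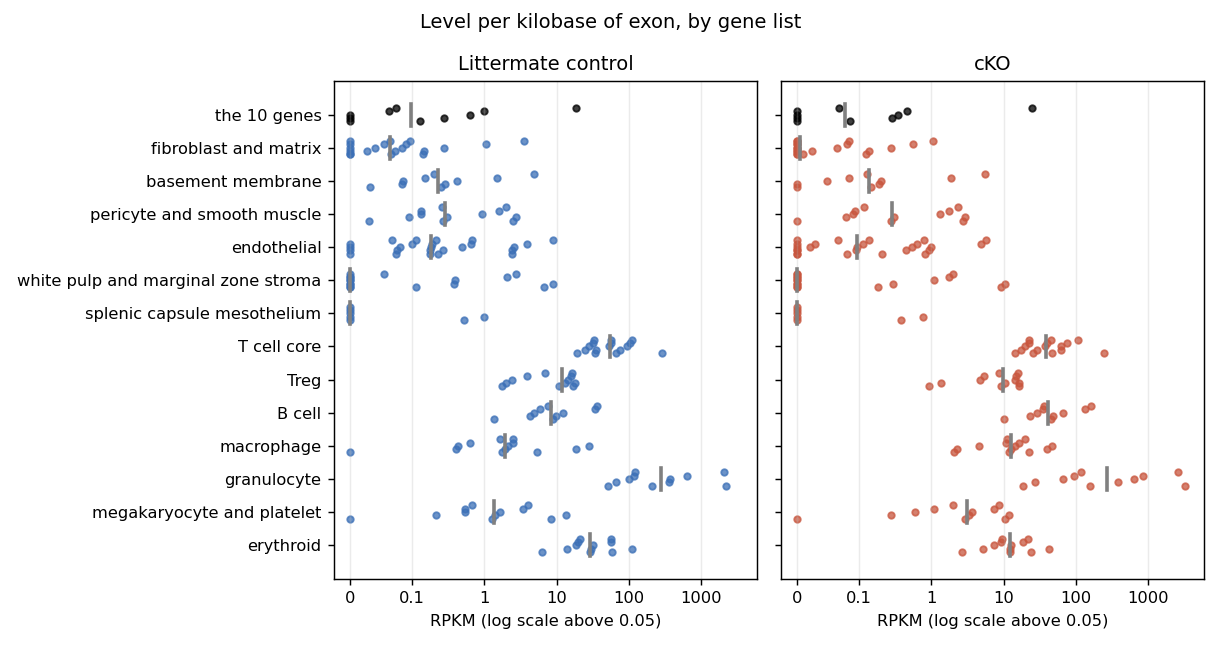
RPKM of every gene of each list in the littermate control library (left panel) and the cKO library (right panel), 1 point per gene and a grey bar at the list's median, on an axis that is linear below 0.05 and logarithmic above. The stromal and endothelial lists have medians below 1 RPKM in both libraries, while the T cell core median is 54.8 and 38.4, and among the 10 genes Pecam1 alone is above 1 RPKM.

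Summed over the 10 genes, the cKO library held more reads, 162 against 127 RPM. Pecam1 held 2339 of 2566 control reads and 2836 of 2973 cKO reads. The log2 ratio of the summed levels, cKO over control, was 0.45 (95% interval 0.37 to 0.52) over all 10 genes and -0.50 (-0.81 to -0.18) over the 9 without Pecam1. Those 9 genes came to 11.2 RPM (9.80 to 12.8) and 7.48 RPM (6.28 to 8.84). Relative to the T cell core genes the difference between the libraries was smaller, with 2.82 reads of the 9 genes per 1000 T cell core reads (control) against 2.45 (cKO). In libraries made from many cells, fewer cells of a type and less RNA per cell cannot be told apart.

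A gene was counted as different when its mean level was at least 1 and its fold at least 1.5. Of the 10 genes, 8 passed the filter on level, and Col3a1 and Madcam1 did not. By this rule 1 gene was higher in the cKO library (Col1a2) and 4 were lower (Sparc, Bgn, Pdgfrb and Cdh5), while Col1a1, Kdr and Pecam1 were under the fold. Among all 16659 genes that passed the filter, 17.2% were higher and 24.2% lower. Shares of 1 and 4 in 8 stand beside these, but 3 of these 5 calls rest on 0 reads in 1 library, and so few genes give no basis to call either share particular to them. The median log2 fold change was -0.32 over the 8 genes (-0.31 with genes at 0 held at their bound) and -0.04 over all genes (-0.03). The T cell core scaling shifted the median of all genes by 0.24 to 0.20 and the share of higher genes among all called genes from 41.6% to 55.7%, and it then counted 2 of the 10 genes as higher. In the exact binomial test 7 of the 10 genes had enough reads to be tested, and 1 was higher and 3 were lower, against 14.8% and 17.6% of 14863 genes. With edgeR's exact test at an assumed coefficient of 0.2, 1 was higher (Col1a2) and 1 lower (Sparc), against 6.26% and 10% of the genes tested, and at 0.4 the counts were 0 and 0, against 1.54% and 3.83%, with 2 genes at an unadjusted p under 0.05. None of the 10 genes is in the list of changed genes that the study drew from these libraries. The share of all genes in that list was not worked out, so nothing is read from this.

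Most other genes of the same cells were low as well. Lists of fibroblast, basement membrane, pericyte, endothelial, white pulp and mesothelial genes held 91 genes of the data. Of these, 21 (23.1%) had 0 reads in both libraries, against 19.3% of all genes, and 60 had at most 30 reads in each. Their median was 0.114 RPKM (control) and 0.0718 RPKM (cKO), beside 1.63 and 1.57 over all genes with a known length. The 69 that passed the filter comprised 15 that were higher in the cKO library (21.7%) and 29 that were lower (42.0%), beside 17.2% and 24.2% of all genes, with a median log2 fold change of -0.29 (-0.25 at bounds). Of the 91, 14 were at 0 in the cKO library only and 3 in the control library only. Zeros were more frequent in the cKO library over all genes as well. Of all 20938 genes, 6375 were at 0 in the cKO library and 4751 in the control library, and 4041 were at 0 in both. The summed reads of the 91 genes were 298 and 269 RPM, and the log2 ratio of the summed levels was -0.06 (95% interval -0.11 to -0.00). Relative to the T cell core genes the direction was the opposite, with 74.9 and 88.3 reads per 1000 T cell core reads. Of these 91 genes, 6 (Col5a1, Adgrl4, Adgrf5, Stab2, Il7 and Clu) are in the list of changed genes drawn from these same libraries, so their direction is not independent evidence. Nor is anything read from their number, since the share of all genes in that list was not worked out.

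**Figure D4:**
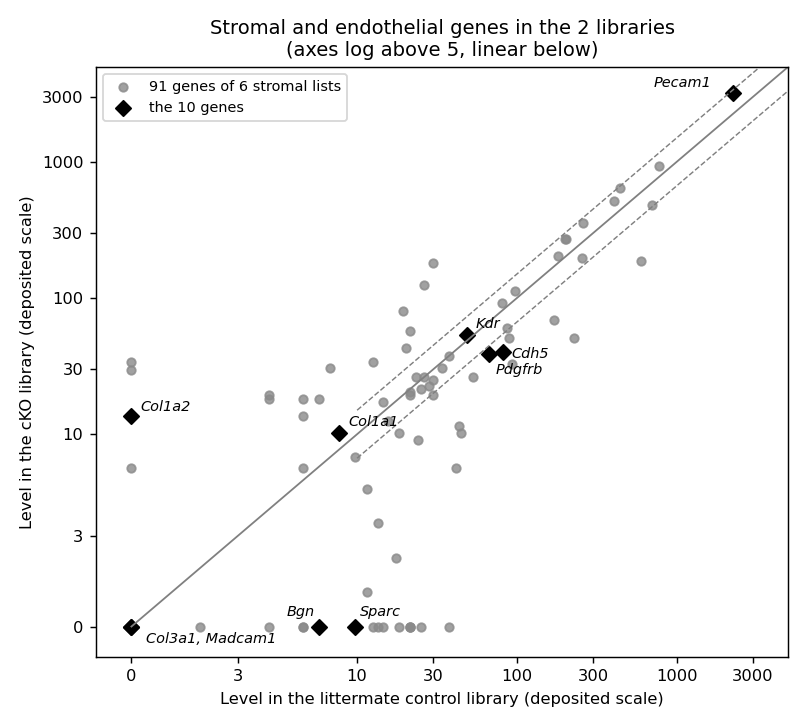
Deposited level of the 10 genes (diamonds) and of the 91 genes of the stromal lists (grey points) in the control library (horizontal) and the cKO library (vertical), on axes linear below 5 and logarithmic above, with a line of equality and dashed lines at a fold of 1.5. Points on the lower edge are genes at 0 in the cKO library, such as Sparc and Bgn, and they outnumber those at the left edge, such as Col1a2. Over all genes, too, more were at 0 in the cKO library (6375) than in the control library (4751).

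In the fibroblast and matrix list, 6 of 20 genes had 0 reads in both libraries (Col5a2, Col6a1, Dcn, Lum, Fbln1 and Postn). Decorin and lumican, encoded by Dcn and Lum, are among the most abundant proteoglycans of fibroblasts. The list was carried by Col5a1, a chain of type V collagen, with 614 control and 165 cKO reads. Its log2 fold change was -1.66 (95% interval -1.92 to -1.41). It made up 76.4% and 50.8% of the list's reads, and its partner chain Col5a2 had none. Of the 14 genes that passed the filter, 5 were higher in the cKO library and 9 lower, with a median of -1.42 (-0.99 at bounds). The higher ones included Col14a1 (20 and 71 reads) and the matrix protease Mmp2 (4 and 17 reads). The lower ones included Timp3, an inhibitor of such proteases (45 and 10 reads), and Igfbp7, which vessels and fibroblasts secrete (26 and 0 reads, at least 7.37-fold lower).

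The endothelial list had 25 genes, of which Emcn, Sox18 and Ramp2 had 0 reads in both libraries. Of the 22 that passed the filter, 4 were higher in the cKO library and 10 lower, and the median was -0.41. Most reads were on Eng, a TGF-beta co-receptor that macrophages also carry (726 and 425 reads), Erg (269 and 312 reads) and Vwf, which platelets also hold (210 and 237 reads). Stab2, the scavenger receptor of sinus endothelium, had 31 control and 158 cKO reads. Its log2 fold change was 2.54 (95% interval 2.02 to 3.19), opposite to Cdh5. The related gene Stab1 (14 and 3 reads) went the other way, with a log2 fold change of -1.72 (-4.43 to -0.15). Lyve1 had 16 and 11 reads, and its interval of -1.56 to 0.89 held 0. Stab1 and Lyve1 were named after their values were seen. Adgrf5 (39 and 0 reads), the angiopoietin receptor Tek (22 and 0 reads) and the tight junction protein Cldn5 (14 and 0 reads) were at least 11.1-fold, 6.24-fold and 3.97-fold lower. A 0 in the cKO library was also met by 18.0% of all genes with 26 to 50 control reads. For 13 to 25 control reads that share was 41.8%. The angiopoietin receptor and the tight junction protein thus lay on the side of Cdh5, and Aplnr (13 and 30 reads) lay on the other side. So did Sox17 (5 and 12 reads), but its 95% interval of -0.11 to 3.35 held 0.

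Pericyte and smooth muscle genes did not move as one with Pdgfrb. Of 12 genes, 1 was higher (Myl9, 22 and 50 reads) and 2 lower, among them Myh11, the myosin of smooth muscle, with 46 and 9 reads. The median was 0.06. Mcam had 187 and 180 reads, Tagln 101 and 99, and Kcnj8 83 and 81. Rgs5, a defining gene of pericytes, had 24 and 23 reads, and Acta2, the actin of smooth muscle, 90 and 53. Rgs5 was named after its values were seen.

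In the basement membrane list, 1 of 10 genes was higher in the cKO library (Hspg2, 21 and 38 reads) and 5 were lower. The type IV collagen chains Col4a1 (43 and 5 reads) and Col4a2 (55 and 23 reads), which lie beneath endothelium, were among the lower ones. The laminin chain Lamc1 (804 and 826 reads) and Nid1 (207 and 237 reads) held most reads of the list and differed by 0.27 and 0.43.

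Many genes that set the fibroblast network of the spleen apart were at 0. Of 17 white pulp and marginal zone genes, 8 had 0 reads in both libraries: the chemokines Ccl21a and Cxcl13, Pdpn, the transcription factors Nkx2-5, Tlx1, Tcf21 and Wt1, and Grem1. Over all genes, 19.3% were at 0 in both. The chemokine Ccl19 had 2 control and 0 cKO reads. The reads of this list lay mainly on Bst1 (455 and 564 reads), Ltbr (420 and 452) and Mfge8 (263 and 172), genes that blood cells use as well. Il7, a survival factor for lymphocytes, had 0 control and 30 cKO reads, at least 11.8-fold higher, and Cxcl12 had 7 and 27 reads. Il33 went the other way with 22 and 0 reads, at least 6.24-fold lower. Of the 7 capsule mesothelium genes, Msln, Upk3b, Krt8 and Krt19 had 0 reads in both libraries. Lrrn4 had 0 and 26 reads and Upk1b 22 and 0 reads, so that markers of the same layer were at 0 in opposite libraries.

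Genes that modify, fold and trim collagen came to 510 and 471 RPM over the 14 genes of the list, and 5 of them had at most 30 reads in each library. The list's median was 0.600 RPKM (control) and 0.487 RPKM (cKO), beside 1.63 and 1.57 over all genes with a known length. P4hb, a disulfide isomerase that is also a subunit of prolyl hydroxylase and is used by all cells, had 7148 and 5882 reads, a log2 fold change of -0.05, and held 69.2% and 68.2% of the list's reads. P4ha1 had 1269 and 809 reads and Plod3 877 and 979. Serpinh1, the collagen chaperone HSP47, had 16 and 0 reads (at least 4.54-fold lower) and Adamts2, which trims procollagen, 25 and 0 reads (at least 7.09-fold lower). Adamts14, of the same protease family, was the 1 gene of the list that was higher, with 311 and 533 reads, and 6 of the 14 were lower.

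Ligands and partners of the receptors showed a median of 0.02 over 13 of 15 genes, with 2 higher and 3 lower. The ligands Pdgfa and Pgf had 0 reads in both libraries. Pdgfc had 0 control and 54 cKO reads, at least 21.2-fold higher, while Vegfc had 16 and 0 reads, at least 4.54-fold lower. Vegfa, the ligand of Kdr, had 395 and 280 reads, a log2 fold change of -0.26. Nrp1, its co-receptor, which many Treg cells carry, had 1234 and 1340 reads. Of the catenins that bind the tail of VE-cadherin, Ctnnb1 had 5759 and 4399 reads and Jup 126 and 298, a log2 fold change of 1.47 for Jup.

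Blood cells that can carry Pecam1 were read in both libraries. The megakaryocyte and platelet list had 133 and 148 RPM, with Gp6 at 0 in both and 6 of 11 genes higher. Most of its reads were on Itgb3 (1587 and 1277 reads) and Gp1ba (457 and 522 reads), and Ppbp (12 and 58 reads) and Tubb1 (47 and 221 reads) were higher in the cKO library. The macrophage list was higher in the cKO library in 13 of 13 genes and the B cell list in 10 of 10, whereas the erythroid list was lower in 12 of 12. The granulocyte list had 2 higher and 3 lower genes of 12. Pecam1 moved in the same direction as the summed reads of the macrophage, B cell, granulocyte and platelet lists. Cdh5 and Pdgfrb moved with the erythroid list. The T cell core list (3979 and 3048 RPM) and the stem and progenitor list (260 and 157 RPM) were also lower in the cKO library, opposite to Pecam1. The part of these cells in the result was not tested.

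**Figure D5:**
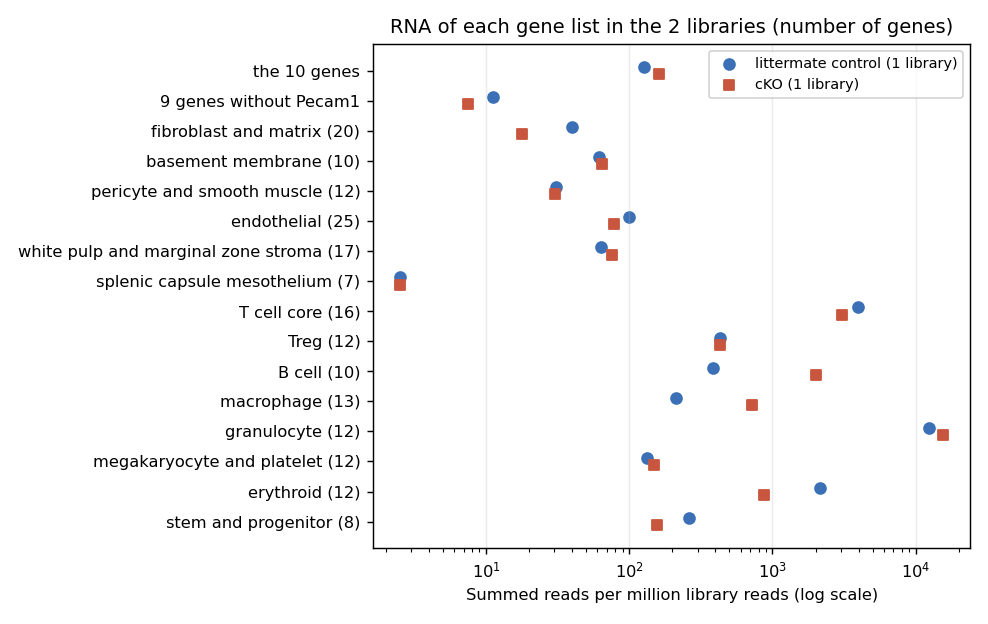
Summed reads per 1000000 library reads of each gene list, on a log scale, in the littermate control library (circles) and the cKO library (squares), with the number of genes in brackets. The 9 genes without Pecam1 lie at 11.2 and 7.48, and the 10 genes with Pecam1 at 127 and 162, in the range of the megakaryocyte and platelet list at 133 and 148.

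On the mouse genome GRCm38 (mm10), Col1a1 lies on chromosome 11 from 94936224 to 94953042, Col1a2 on chromosome 6 from 4504814 to 4541544 and Col3a1 on chromosome 1 from 45311538 to 45349706, all on the plus strand. Sparc lies on the minus strand of chromosome 11 between 55394500 and 55423183, and Bgn on the plus strand of chromosome X between 73483602 and 73495933. Pdgfrb lies on chromosome 18 from 61045150 to 61085061, Cdh5 on chromosome 8 from 104101625 to 104144511 and Madcam1 on chromosome 10 from 79664559 to 79668537, on the plus strand. The minus strand holds Pecam1 on chromosome 11 between 106654217 and 106750628 and Kdr on chromosome 5 between 75932827 and 75978458. Milr1, 597 bases from Pecam1 on the opposite strand, had 466 and 600 reads.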

How the data were processed

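Treg cells were isolated magnetically and their poly(A) RNA was sequenced, with 1 library per genotype. The authors deposited 1 signal value per gene. The values have the form of a whole-number count divided by a size factor, since 100% are whole multiples of the smallest value (0.967 and 1.14) within 0.01 read. The methods name TopHat and mm10, and the submitters' processing notes list bcl2fastq 2.0, STAR, StringTie and DESeq2. The counting tool, annotation and strand setting are not given in the sources used here.

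The 10 genes and the lists were chosen with earlier results of these data known. Changes are log2 of the cKO over the control value, each plus 1, for genes with a mean of at least 1 and a fold of at least 1.5, the fold in the methods. Those also give 0.1 without naming its quantity, used here as an adjusted p threshold. No test between genotypes was possible. The count test on recovered reads was a two-sided exact binomial test against TMM-scaled totals for genes with at least 10 reads over both libraries, with Benjamini-Hochberg adjustment over all of them. RPKM used exon lengths of GENCODE vM21, which matched 20516 genes by symbol and all 10 genes of interest. Named were, besides the 10, the genes of each list at 0 in both libraries and up to 3 with the most reads. Up to 3 with the largest rise and up to 3 with the largest fall were named as well. Neighbours of the 10, Rgs5, Stab1, Lyve1 and Ccl19 were added after their values were seen. Alternatives were other pseudocounts, filters, scalings and fold thresholds, only genes above 0 in both libraries, sums without Pecam1, the binomial test and, assuming a coefficient of variation of 0.2 or 0.4 between replicates, edgeR's exact test. Python 3.11.15, numpy 2.4.6, scipy 1.17.1, pandas 2.3.3, matplotlib 3.10.9, R 4.3.3, edgeR 4.0.16 and DESeq2 1.42.0 (size factors) were used. The steps were tested on data simulated with counting error alone. That test does not cover spread between libraries, or zeros in 1 library beyond counting error. A floor of 3 reads was used for bounds, which take no account of how often genes had 0 reads in 1 library only.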

Additional observations from a re-analysis of the deposited data

How the results depend on the processing

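The changes of the 8 genes above the filter kept their direction under 2 pseudocounts and 4 scalings. That is no check of the directions. A pseudocount cannot change a direction, and the scalings shifted log2 values by -0.09 to 0.24, too little to reverse any of the 8. For the 5 genes above 0 in both libraries, 28 of the values under these settings stayed within the counting interval. The 2 exceptions were those of Pecam1, from 0.51 to 0.42 with library totals and to 0.75 with the T cell core scaling. For the genes at 0 in 1 library the size depends on the pseudocount and says little: with 0.1 and 5 in place of 1, Col1a2 went from 3.87 to 7.10 and 1.90, Sparc from -3.42 to -6.61 and -1.55, and Bgn from -2.77 to -5.88 and -1.11. The log2 ratio of the summed levels went from 0.45 to 0.36 and 0.69 under the same scalings, and it reversed to -0.50 without Pecam1 and to -0.43 without Pecam1 and Sparc. The count of higher genes among the 10, which was 1, became 0 with a minimum mean level of 10, with only genes above 0 in both libraries and with edgeR's exact test at a coefficient of 0.4, and 2 with the T cell core scaling. The count of lower genes, which was 4, became 2 with a minimum mean of 10 and with genes above 0 in both libraries, and 1 and 0 with edgeR's exact test at 0.2 and 0.4. At 0.4, 2 of the 7 genes tested had an unadjusted p under 0.05, as did 3 at 0.2 and 5 in the binomial test. The 29 lower stromal genes became 17 with a minimum mean of 10, 16 with genes above 0 in both libraries, and 18 and 7 with edgeR's exact test at 0.2 and 0.4, and the 15 higher ones became 7 and 2 with that test. Over all genes, 2864 higher became 1722 at a fold of 2 and 931 and 229 with edgeR's exact test. The 4028 lower genes became 2035 with a minimum mean of 10, 1904 with genes above 0 in both libraries, 2617 in the binomial test, and 1488 and 569 with edgeR's exact test. The T cell core scaling gave 4200 higher and 3337 lower. The drop under the filters follows from their construction. Keeping only genes above 0 in both libraries removes those at 0 in either (Col1a2 for the control library, Sparc and Bgn for the cKO library). The minimum mean of 10 removes genes that are low on average over both libraries, these 3 among them, but can keep a gene at 0 in 1 library. With assumed coefficients the smaller counts follow from the wider spread that is assumed. Other causes were not tested. Genes with few reads have wide counting intervals, and no count carries a replicate check. No paired analysis was possible because the 2 genotypes have a lone library each.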

Other observations

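Some genes that endothelium shares with blood progenitors were lower in the cKO library. Of 8 stem and progenitor genes 7 were lower and 0 higher, against 24.2% and 17.2% of all genes, and the median log2 fold change was -1.26. Cd34, a surface protein of progenitors and of vessel endothelium, had 367 control and 89 cKO reads, a log2 fold change of -1.80. Kit, the receptor for stem cell factor, had 2960 and 1408 reads, and Gata2, a transcription factor of progenitors and endothelium, 760 and 378. Hoxa9 had 60 and 12 reads and Mecom 45 and 0, at least 12.8-fold lower. Flt3 was the exception with 714 and 827 reads, a log2 fold change of 0.44. The list summed to 260 and 157 reads per 1000000 library reads.

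Small read numbers were unevenly filled. In the control library 425 genes had exactly 4 reads, against 240 with 3 and 210 with 5, and 292 had exactly 8, against 194 with 7 and 177 with 9. In the cKO library 257 genes had exactly 4 reads, against 136 with 3 and 148 with 5. Genes at 0 numbered 4751 (control) and 6375 (cKO). The collagen and matrix genes Col1a1, Col1a2, Sparc and Bgn lie in this range of read numbers. The intervals and the binomial test take these numbers as plain counts, and what the unevenness means for them was not tested.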
